A study of Mus musculus with 46 samples.

Results

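The genes described here are the membrane transporters of the renal proximal tubule, the first part of the nephron after the glomerular filter. They are 47 genes of the 53465 in the deposited table, chosen by name: solute carriers of the Slc families, organic anion transporters of the Slco family, ABC efflux pumps and the water channel Aqp1. The rule that chose them uses names and no measured value, although it was written with earlier results of these data known. RNA was measured in 4 cell populations sorted from mouse kidneys, namely proximal tubular (PT) cells that bind Lotus lectin (LTL+), F4/80 high macrophages, CD31+ endothelial cells and PDGFRB+ stromal cells. All mice were wild type (labelled WT) and, in the study's methods, male C57BL/6 animals aged 8 to 12 weeks. They had sham surgery, unilateral ureteric obstruction (UUO), in which 1 ureter is blocked, or reversal of the obstruction by re-implanting the ureter (rUUO). The methods give day 2 and day 7 for the UUO mice and 14 days after reversal for the rUUO mice, and the labels do not state which day a sorted UUO sample came from. The values used here came from 3 sham, 4 UUO and 3 rUUO samples of PT cells, 4, 4 and 3 of macrophages, 4, 3 and 4 of endothelial cells, and 4 of each group of stromal cells. UUO replicate 2 of the PT cells has both words, sham and UUO, in its title and was placed by its treatment label. The labels do not say that each sample came from a separate mouse, so p-values measure the spread between these samples.

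The proximal tubule reclaims most of the glucose, amino acids, phosphate and bicarbonate that the glomerulus filters. It does so by pairs of carriers: an apical transporter, usually driven by sodium, takes the solute up from the tubule fluid, and a basolateral transporter passes it on to the blood. A further set works in the other direction and secretes organic anions and cations, among them many drugs, from the blood into the urine. The transporters are distributed along the tubule, from the early segments S1 and S2 to the late segment S3.

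Values are FPKM, that is, sequenced fragments divided by transcript length and by the total of the sample, so levels of different genes can be compared per length. Changes are differences of log2(FPKM + 1), which understates the change of genes near 1 FPKM, tested by limma on every gene whose mean reached 1 FPKM and adjusted by Benjamini-Hochberg, with 0.05 as the threshold. The table holds no counts. Relative depth, read from the steps between low values of short single-exon genes with 1 as the median of all samples, lay between 1.02 and 1.63 for sham PT samples, between 0.961 and 1.49 for UUO and between 1.02 and 1.33 for rUUO. The mitochondrial genome's own genes made up 71.7 ± 3.45% of all FPKM in the sham PT samples (SD, n = 3). Their share was 64.0 ± 3.64% after UUO (SD, n = 4) and 69.8 ± 1.60% after rUUO (SD, n = 3).

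The sequence 250 bases before to 50 bases after the RefSeq start was at hand for 39 of the 47 genes. It is shown for the most abundant transporter, the phosphate carrier Slc34a1, and for the 2 with the largest fall in UUO, the organic anion carrier Slc22a8 and the neutral amino acid carrier Slc6a19. They lie, on the build GRCm38.p6, at chr13:55399398-55399697 (plus strand), chr19:8592932-8593231 (plus strand) and chr13:73692587-73692886 (minus strand). Each is read 5′ to 3′ along its gene. Capitals mark the letters GTTAAT, a core of the sites bound by HNF1 factors, and CAAAGTCC, a core of the sites bound by HNF4A, on either strand; these factors are known for their part in proximal tubule gene expression.
Slc34a1: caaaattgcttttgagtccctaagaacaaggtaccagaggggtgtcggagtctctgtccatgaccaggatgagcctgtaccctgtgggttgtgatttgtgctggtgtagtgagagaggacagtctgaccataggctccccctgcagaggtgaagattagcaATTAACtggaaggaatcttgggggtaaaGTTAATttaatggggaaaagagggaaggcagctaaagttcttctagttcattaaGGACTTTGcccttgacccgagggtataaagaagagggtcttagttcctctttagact
Slc22a8: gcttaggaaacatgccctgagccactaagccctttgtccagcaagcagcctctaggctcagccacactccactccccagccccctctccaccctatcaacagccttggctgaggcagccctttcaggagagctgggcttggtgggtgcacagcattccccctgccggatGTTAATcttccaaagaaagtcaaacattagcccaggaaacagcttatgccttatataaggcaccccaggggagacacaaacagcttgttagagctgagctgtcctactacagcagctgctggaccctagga
Slc6a19: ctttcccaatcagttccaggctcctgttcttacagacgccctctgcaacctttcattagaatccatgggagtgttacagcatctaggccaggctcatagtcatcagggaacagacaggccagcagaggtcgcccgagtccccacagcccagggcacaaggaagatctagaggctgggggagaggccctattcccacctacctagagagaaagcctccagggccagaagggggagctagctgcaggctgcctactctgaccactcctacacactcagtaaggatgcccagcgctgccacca
GTTAAT or its reverse complement was in 6 of the 39 windows (15.4%), those of Slc22a6, Slc22a8, Slc34a1, Slc3a1, Slc5a10 and Slc7a7, and in 8.24% of the windows of all 27025 genes in the sequence table. CAAAGTCC was in 2 of the 39 (5.13%), Slc34a1 and Slc3a1, and in 1.63% of all genes. The Slc34a1 window held 2 matches to the first motif, which began 89 and 61 bases before the start (positions -89 and -61), and 1 match to the second at -7. The Slc22a8 window held 1 match at -81, and the Slc6a19 window held none. For each of these genes the RefSeq start lies within the longer gene model of the deposited table. A match is a description of the letters, and the absence of a match says only that these letters are not in the window.

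In sham kidneys most of the transporters were highest in PT cells. The highest level was that of Slc34a1, the main sodium-phosphate cotransporter of the apical membrane, at 1457 ± 270.4 FPKM (SD, n = 3), and Slc4a4, the sodium-bicarbonate cotransporter of the basolateral membrane, followed at 355 ± 46.6 FPKM. Slc5a2, the glucose carrier SGLT2, had 261 ± 52.5 FPKM, and the lactate carrier Slc5a12 had 170.3 ± 14.6 FPKM. At the other end, Slc7a12, Slc22a13 and Slc22a19 had means of 0.223, 0.237 and 0.197 FPKM.

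Of the 40 transporters whose mean over the sham samples reached 1 FPKM, 35 were higher in PT cells than in the mean of the other 3 populations and 0 were lower, against 9.34% of all genes called higher (limma). The median difference of the 40 was 3.90 on the log2 scale, where the median of all genes was -1.06. Mitochondrial genes took 71.7% of FPKM in sham PT cells, 25.6% in macrophages, 37.7% in endothelial cells and 37.5% in stromal cells. They therefore lower all other values most in PT cells. Without these genes in the scale 37 of the 40 were called higher, with 2412 of all 14204 genes. After quantile normalization 39 were called higher, with 3231 of all genes. On the deposited scale Abcb1b, Abcc4, Slc15a2, Slc26a6 and Slc5a1 did not pass, with differences of -0.47, 0.33, 0.40, 0.09 and -0.13. On that scale the mean was highest in PT cells for 41 of the 47, in endothelial cells for Aqp1, Abcc4 and Slc26a6, in macrophages for Slc15a2 and Abcb1b, and in stromal cells for Slc5a1. Aqp1, which lets water pass, had 165 ± 20.3 FPKM in endothelial cells (SD, n = 4) and 26.0 ± 3.54 FPKM in PT cells (SD, n = 3). The basolateral exchanger Slc7a8 had 98.5 ± 17.9 FPKM in PT cells, 47.8 ± 3.87 FPKM in macrophages (SD, n = 4) and 49.6 ± 8.90 FPKM in stromal cells (SD, n = 4). Its counterpart Slc7a7 had 129 ± 16.5 FPKM in PT cells and 39.3 ± 12.4 FPKM in macrophages (SD, n = 4).

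For the 34 transporters with at least 10 FPKM in PT sham cells, the median level in sham macrophages was 5.0% of that in PT cells, in endothelial cells 3.88% and in stromal cells 2.41%. The 10 markers of proximal tubule cells, among them the endocytic receptors Lrp2 and Cubn, had medians of 5.01%, 3.79% and 2.25% in the same libraries. Both sets of percentages are on the deposited scale, where the mitochondrial share lowers the PT values most. Each sorted population carried its own markers, with sums of 10621 to 13983 FPKM for 8 macrophage markers in sham macrophages, 3074 to 3773 FPKM for 7 endothelial markers in sham endothelial cells and 1042 to 2294 FPKM for 7 stromal markers in sham stromal cells. The low levels of most transporters outside the PT cells were near those of the proximal tubule markers, and whether they were made in those cells or came from PT RNA was not tested.

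**Figure D1:**
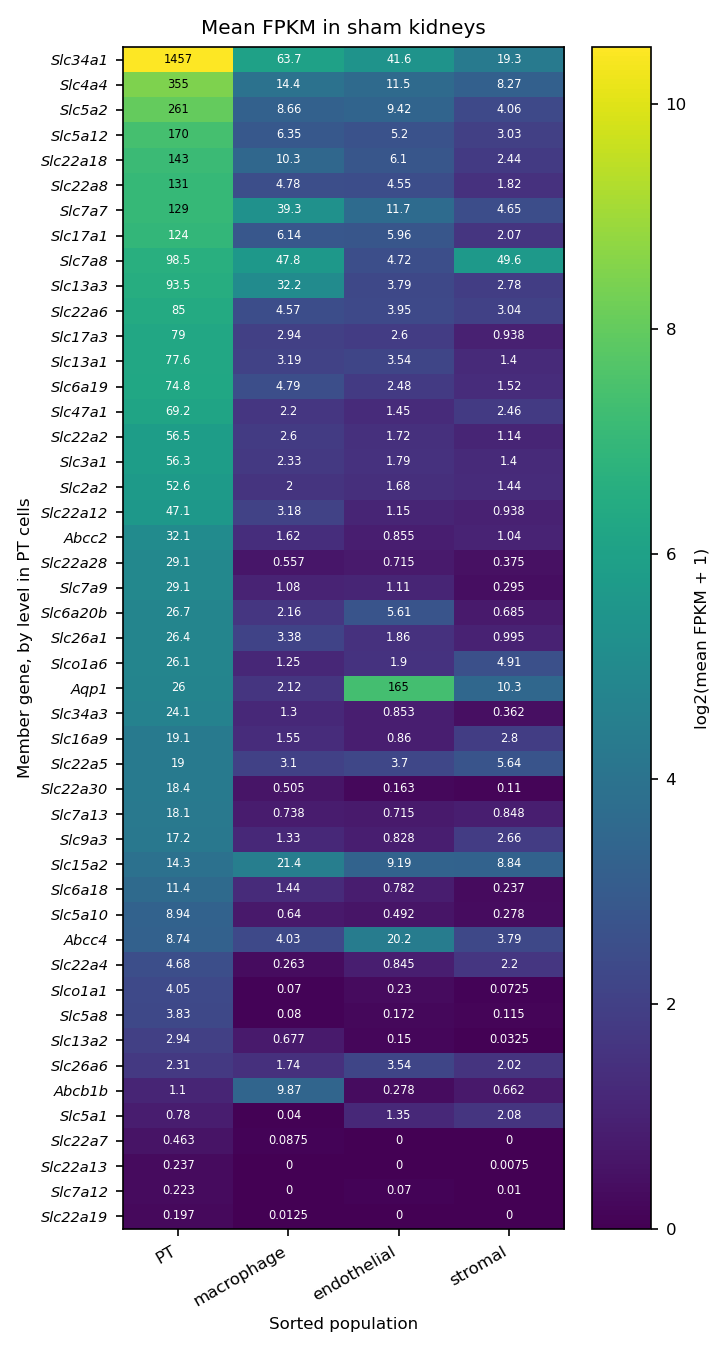
Mean FPKM of the 47 transporters in sham samples of PT cells (n = 3), macrophages, endothelial cells and stromal cells (n = 4 each), printed in each cell, with colour giving log2(mean FPKM + 1) and genes ordered by their level in PT cells. Most genes are high in PT cells only, while Aqp1 is highest in endothelial cells and Slc7a8, Slc7a7 and Slc15a2 are also seen in other columns.

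The first question was how obstruction changed these transporters in the PT cells. In UUO their summed level was 1397 ± 277 FPKM (SD, n = 4) against 3937 ± 519 FPKM in sham (SD, n = 3), and it was 2315 ± 129 FPKM in rUUO (SD, n = 3). As a share of all FPKM outside the mitochondrial genes this was 0.467 ± 0.0999% in UUO, 1.61 ± 0.0558% in sham and 0.882 ± 0.0302% in rUUO. The mean filter kept 44 of the 47, leaving out the organic anion carriers Slc22a7, Slc22a13 and Slc22a19, which had at most 2.00 FPKM in any PT sample. Of the 44, 24 were lower in UUO than in sham, 2 were higher and 18 did not pass the threshold (limma). Over all 11416 genes tested, 32.8% were called, 4.91% lower and 27.9% higher. The median change of the 44 was -0.98 and that of all genes was 0.51, and 40 of the 44 lay below the latter. The groups did not overlap for 28 transporters that were lower in UUO and for 3 that were higher, against 6.07% and 34.5% of all genes.

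The same counts were taken on other scales. After quantile normalization 1218 genes were called higher and 1217 lower, where the deposited scale gave 3186 and 561. The median of all genes was then -0.04, 33 transporters were lower and 1 was higher. With FPKM rescaled to the same sum without the mitochondrial genes, the median of all genes was 0.27, 28 transporters were lower and 1 was higher. Without UUO replicate 2 again 24 were lower and 2 higher. Of the 24 transporters called lower, 21 were called lower in all 18 alternative analyses, which include the repeats without 1 sample. In these sorted but pooled cells, fewer cells of a type and less RNA per cell cannot be told apart.

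Phosphate is reclaimed by Slc34a1 and Slc34a3, and both fell in UUO. Slc34a1 (ENSMUSG00000021490.11, chr13:55398187-55415592 on the build of the table, GRCm38) had 1609.8, 1617 and 1145 FPKM in the sham samples, 314, 304, 359 and 363 FPKM in UUO, and 921, 802 and 692 FPKM in rUUO. The 3 groups did not overlap, with rUUO between the others. Its UUO change from sham was -2.10 ± 0.17 (SE; limma adjusted p = 6.10e-07), and its UUO mean was 23.0% of the sham mean. Slc34a3 had 26.9, 26.4 and 18.9 FPKM in sham, 5.24, 4.26, 2.95 and 3.69 FPKM in UUO, and 25.3, 18.3 and 9.12 FPKM in rUUO. All UUO samples were below all others, while sham and rUUO overlapped. Its change in UUO was -2.32 ± 0.31 (limma adjusted p = 8.02e-05).

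Of the 4 sugar transporters, 2 fell, 1 rose and 1 did not pass. Slc5a2, the high-capacity glucose carrier SGLT2, had 274, 306 and 204 FPKM in sham, 47.1, 38.1, 41.4 and 44.6 FPKM in UUO, and 168, 133 and 111 FPKM in rUUO. The UUO values lay close together and far below both other groups. The change was -2.57 ± 0.20 (limma adjusted p = 4.19e-07), to 16.4% of the sham mean. Slc2a2, the GLUT2 carrier that passes glucose to the blood, changed by -1.87 (limma adjusted p = 3.81e-05). Slc5a1, the high-affinity glucose carrier SGLT1, was low throughout, with 0.88, 0.49 and 0.97 FPKM in sham, 1.88, 1.82, 2.75 and 5.06 FPKM in UUO, and 2.25, 2.22 and 2.59 FPKM in rUUO. Every UUO and rUUO sample was above every sham sample. The change in UUO was 1.06 ± 0.33 (limma adjusted p = 0.0230), and this call was lost after quantile normalization (change 0.39, adjusted p = 0.401), without the mitochondrial genes in the scale (adjusted p = 0.0716), without the low-value filter, without UUO replicate 4 and without any 1 of the 3 sham samples. Slc5a10, a carrier of mannose and fructose, changed by -0.44 and did not pass.

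Of the 3 monocarboxylate transporters, Slc5a12 fell. It had 172, 184 and 155 FPKM in sham, 25.1, 29.2, 47.1 and 58.5 FPKM in UUO, and 67.7, 81.2 and 106 FPKM in rUUO. The 3 groups did not overlap. Its change in UUO was -2.14 ± 0.27 (limma adjusted p = 4.51e-05). Slc16a9 and the lactate carrier Slc5a8 changed by -0.68 and -0.38 and did not pass.

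Of the 8 apical transporters of amino acids and peptides, 3 fell and 5 did not pass. The largest fall of all 44 was that of Slc6a19, the main carrier of neutral amino acids, which had 80.7, 71.8 and 71.8 FPKM in sham, 10.2, 8.28, 8.49 and 5.84 FPKM in UUO, and 29.9, 26.8 and 21.7 FPKM in rUUO. No sample of a group reached the values of another group. Its change was -3.06 ± 0.22 (limma adjusted p = 2.09e-07), to 11.0% of the sham mean. Slc6a20b changed by -1.71 and Slc7a9, the light chain of the cystine carrier, by -0.98, both called. Its heavy chain Slc3a1 changed by -0.64 and just missed the threshold (limma adjusted p = 0.0610). Slc6a18, a neutral amino acid carrier whose gene lies 1.72 kb from Slc6a19 in the table's coordinates on chromosome 13, had a change of 0.58 and did not pass, nor did Slc7a12, Slc7a13 and the peptide carrier Slc15a2 with changes of 0.97, -0.20 and 0.11.

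Both basolateral amino acid exchangers fell. Slc7a8 had 103, 114 and 78.7 FPKM in sham, 23.9, 26.9, 26.8 and 24.2 FPKM in UUO, and 55.3, 62.5 and 53.3 FPKM in rUUO. Slc7a7 had 142, 135 and 111 FPKM in sham, 34.8, 36.5, 46.2 and 62.4 FPKM in UUO, and 93.5, 94.3 and 67.1 FPKM in rUUO. For both genes the 3 groups were separate, with rUUO in the middle. Their changes in UUO were -1.90 ± 0.19 and -1.53 ± 0.23 (limma adjusted p = 4.48e-06 and 0.000182).

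Of the 5 organic cation and carnitine transporters, 4 fell. Slc22a18, listed among the organic cation carriers, had 157, 156 and 117 FPKM in sham, 42.4, 49.0, 56.4 and 44.6 FPKM in UUO, and 106, 83.8 and 73.5 FPKM in rUUO. Its groups did not overlap, and its change in UUO was -1.55 ± 0.20 (limma adjusted p = 4.79e-05). Slc47a1, the apical efflux carrier MATE1, changed by -1.50, the carnitine carrier Slc22a5 by -1.10 and Slc22a2, the basolateral cation carrier OCT2, by -0.98, all called. Slc22a4 changed by -0.80 and did not pass.

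Of the 9 organic anion and urate transporters tested, 6 fell. Slc22a8, the basolateral carrier OAT3, had 149.9, 132 and 112 FPKM in sham, 26.7, 16.3, 17.4 and 17.4 FPKM in UUO, and 61.8, 72.8 and 42.7 FPKM in rUUO. The 3 groups were separate, and within UUO replicate 1 stood above the other 3 samples. Its change was -2.71 ± 0.23 (limma adjusted p = 1.10e-06). Slc22a6, the carrier OAT1 whose gene lies 6.16 kb from Slc22a8 on chromosome 19, changed by -1.18. The others called were Slc22a28 at -1.73, the urate carrier Slc22a12 at -1.11, Slc17a1 at -0.98 and Slc17a3 at -0.94. Slc22a30, Slco1a1 and Slco1a6 changed by -1.02, -0.52 and -0.97 and did not pass. Slc22a28, Slc22a30, Slco1a1, Slco1a6 and Slc7a12 have close paralogues in the mouse, so that their share of reads is less certain.

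The sulfate and carboxylate transporters went both ways. Slc13a1, the sodium-sulfate cotransporter of the apical membrane, had 88.5, 64.3 and 80.0 FPKM in sham, 133, 146, 192 and 214 FPKM in UUO, and 65.8, 97.4 and 94.8 FPKM in rUUO. All UUO samples were above all others, while sham and rUUO overlapped. Its change was 1.12 ± 0.22 (limma adjusted p = 0.00163), and it stayed above the threshold in all 18 alternatives, from 0.82 after quantile normalization to 1.23. Slc26a1, the basolateral exchanger of sulfate for oxalate or bicarbonate, had 28.0, 27.7 and 23.4 FPKM in sham and 7.90, 8.75, 14.4 and 12 FPKM in UUO. These groups were separate, and the change was -1.25 ± 0.25 (limma adjusted p = 0.00200). In rUUO it had 12.6, 17.4 and 20.3 FPKM, overlapping UUO and below sham. The carboxylate carrier Slc13a3 had 92.3, 96.2 and 92.0 FPKM in sham, 32.9, 34.3, 75.0 and 59.99 FPKM in UUO, and 55.0, 60.4 and 42.6 FPKM in rUUO. All UUO and rUUO samples lay below sham and overlapped each other, and the change in UUO was -0.96 ± 0.27 (limma adjusted p = 0.0148). This call was lost without the low-value filter (limma adjusted p = 0.0599). Slc13a2 and Slc26a6 changed by -0.50 and -0.83 and did not pass.

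Both acid-base transporters fell. Slc4a4 had 359, 399 and 306 FPKM in sham, 99.8, 100.3, 115 and 160.1 FPKM in UUO, and 217, 193 and 234 FPKM in rUUO. Its groups did not overlap, and its change in UUO was -1.59 ± 0.19 (limma adjusted p = 3.22e-05). Slc9a3, the sodium-proton exchanger NHE3 of the apical membrane, changed by -1.46.

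On the deposited scale 0 of the 3 ABC pumps and the water channel passed the threshold in limma, and 1 of the 4, Abcc2, had an unadjusted p under 0.05. Abcc2, an apical pump for conjugated organic anions, had 31.7, 32.8 and 31.9 FPKM in sham, 14.5, 12.5, 24.9 and 28.8 FPKM in UUO, and 22.3, 24.3 and 21.7 FPKM in rUUO. All UUO samples were below sham, but UUO replicates 3 and 4 came close to it, and the change was -0.73 ± 0.27 (limma adjusted p = 0.0505). It passed in 5 of the 18 alternatives, among them quantile normalization (-1.07, limma adjusted p = 0.00685) and the scale without mitochondrial genes (-1.02, limma adjusted p = 0.0119). Aqp1 had 26.0, 29.5 and 22.4 FPKM in sham, 14.7, 12.6, 28.4 and 26.6 FPKM in UUO, and 28.1, 18.2 and 27.1 FPKM in rUUO. Its 3 groups overlapped, and the change in UUO was -0.39 ± 0.29 (limma adjusted p = 0.310), which passed in 1 of the 18 alternatives, quantile normalization (-0.75, limma adjusted p = 0.0425). Abcc4 and Abcb1b changed by 0.03 and 0.16.

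**Figure D2:**
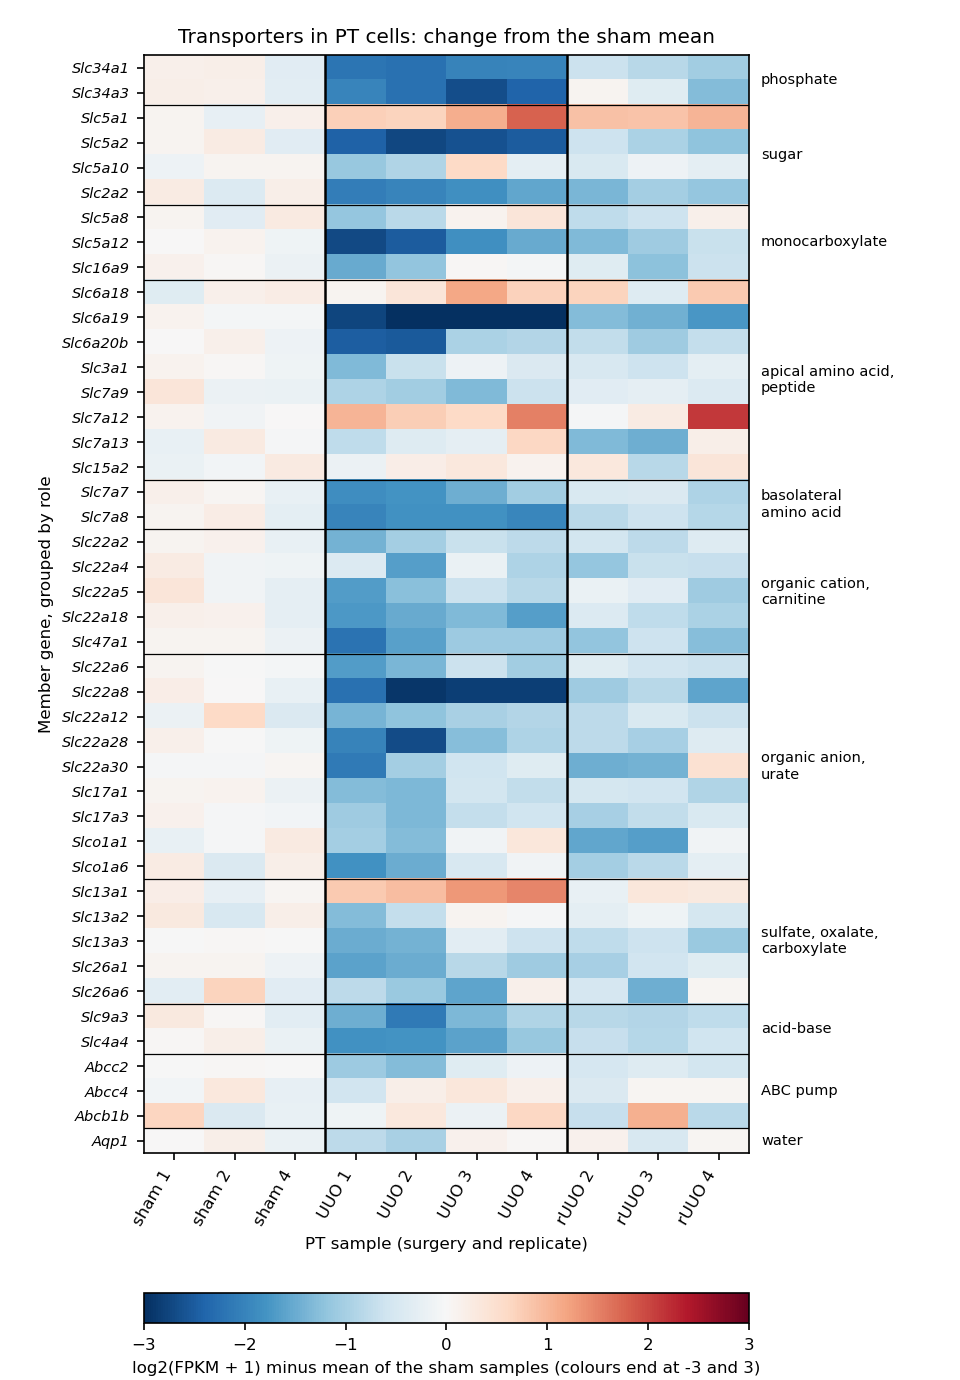
Colour gives log2(FPKM + 1) of each of the 44 tested transporters in each PT sample minus the mean of the 3 sham samples, grouped by role, with blue for lower and red for higher values. The 4 UUO columns are the bluest, Slc6a19 and Slc22a8 are darkest, at or near the end of the scale, and Slc13a1, Slc5a1 and Slc7a12 are red.

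The 4 UUO samples did not lie together for every transporter. UUO replicate 1 was the lowest of the 4 for 25 of the 44 and replicate 4 the highest for 22, against 32.6% and 26.0% of all genes tested. Slc34a1, Slc5a2 and Slc7a8 had nearly the same value in all 4. Most transporters, among them Slc13a3, Slc5a12, Slc6a20b and Aqp1, were higher in replicates 3 and 4 than in replicates 1 and 2. Slc34a3 was lower there. The mean of the 44 transporters, z-scored over the 10 PT samples, was -1.13 and -0.956 in UUO replicates 1 and 2. It was -0.0771 and 0.0353 in replicates 3 and 4, and -0.1496 to 0.164 in rUUO. Summed FPKM was at most 1668 in UUO and at least 2195 in rUUO. Whether the split follows the day of obstruction was not tested.

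All 8 transporters listed for the early segments S1 and S2 fell in UUO, namely Slc34a1, Slc5a2, Slc2a2, Slc5a12, Slc6a19, Slc7a7, Slc7a8 and Slc4a4, with a median change of -2.0. Of the 5 tested for the late segment S3, 1 rose, Slc5a1, and 4 did not pass, Slc5a10, Slc7a12, Slc7a13 and Slc6a18, with a median change of 0.58 where the median of all genes was 0.51. After quantile normalization these medians were -2.22 and 0.11, all 8 early genes were called lower and 0 of the late genes were called. The late genes were much less abundant, with sham means from 0.223 to 18.1 FPKM against 52.6 to 1457 FPKM for the early ones. On the deposited scale 4.91% of all genes were called lower and 27.9% higher, and the difference between the lists was not tested.

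**Figure D3:**
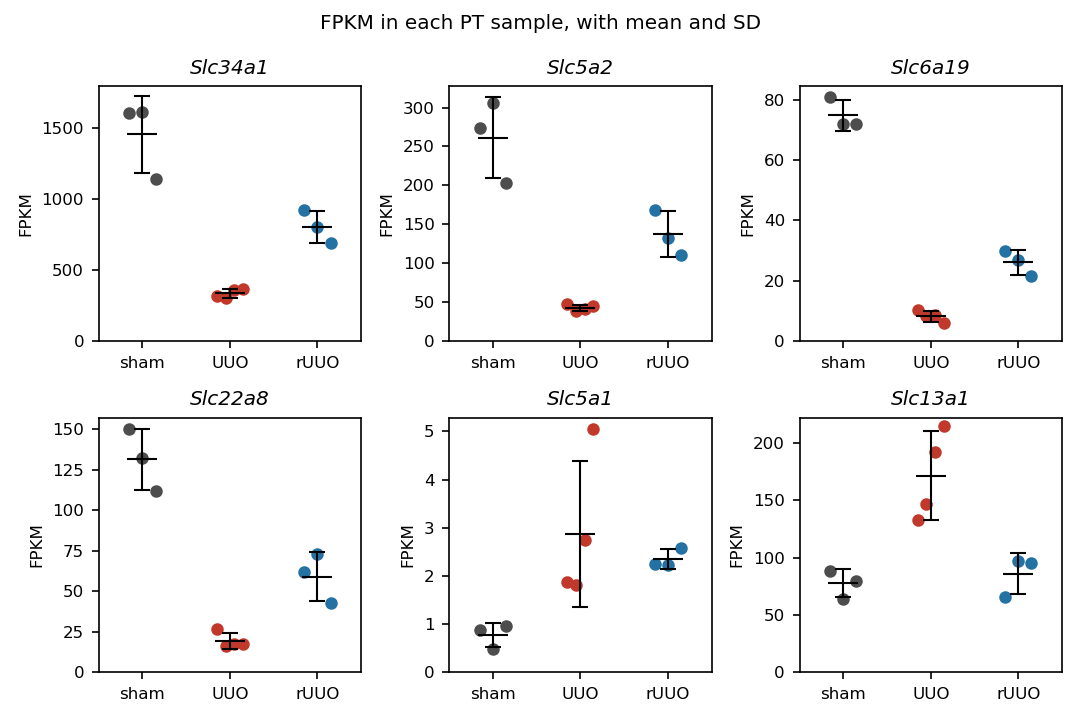
FPKM of 6 transporters in each PT sample, as points, with the mean and SD of the 3 sham, 4 UUO and 3 rUUO samples; each vertical axis starts at 0. Slc34a1, Slc5a2, Slc6a19 and Slc22a8 are lowest in UUO and intermediate in rUUO, Slc13a1 is high in UUO alone, and Slc5a1 stays above sham in rUUO.

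The second question was what reversal of the obstruction changed. Of the 44 transporters, 10 were higher in rUUO than in UUO and 1 was lower, against 3.83% of all genes called, 0.674% higher and 3.15% lower (limma). The median difference of the 44 was 0.31 and that of all genes was -0.27, and 40 lay above the latter. For 15 transporters every rUUO sample was above every UUO sample, which held for 2.57% of all genes. The 10 were Slc34a3 with 1.80 ± 0.31, Slc5a2 with 1.64 ± 0.20, Slc6a19 with 1.57 ± 0.22, Slc22a8 with 1.55 ± 0.23, Slc34a1 with 1.26 ± 0.17, Slc7a8 with 1.13 ± 0.19, Slc5a12 with 1.12 ± 0.27, Slc7a7 with 0.92 ± 0.23, Slc4a4 with 0.87 ± 0.19 and Slc22a18 with 0.85 ± 0.20 (SE). They include 7 of the 8 early-segment genes. The gene that was lower was Slc13a1, at -0.98 ± 0.22 (limma adjusted p = 0.0271). After quantile normalization 15 transporters were higher and 0 lower, with 211 of all genes higher and 148 lower in place of 77 and 360.

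The number of calls after reversal depended on the samples and on the fit. It was 6 without rUUO replicate 2 or without rUUO replicate 3, and 7 without UUO replicate 1, 2 or 3. Slc34a3, Slc5a2, Slc6a19, Slc22a8, Slc34a1 and Slc7a8 were called in all 18 alternatives. The fall of Slc13a1 was called in 9 of the 18, and its adjusted p was 0.138 after quantile normalization.

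The third question was how far the reversed kidneys remained from sham. Against sham, 8 of the 44 transporters were still lower in rUUO and 0 were higher, against 7.46% of all genes called and 0.946% called lower (limma). Every rUUO sample was below every sham sample for 26 transporters, where 6.41% of all genes showed this. The median difference of the 44 was -0.65 and that of all genes was 0.21. With 3 samples in each group an exact permutation test cannot go below 0.1. The 8 were Slc6a19 with -1.49 ± 0.24, Slc2a2 with -1.19 ± 0.25, Slc22a8 with -1.16 ± 0.25, Slc5a12 with -1.02 ± 0.29, Slc5a2 with -0.92 ± 0.21, Slc34a1 with -0.85 ± 0.18, Slc7a8 with -0.76 ± 0.20 and Slc4a4 with -0.72 ± 0.21 (SE). Only 2 calls, those of Slc6a19 and Slc2a2, were made in every alternative, and the count was 2 without sham replicate 1, 4 without sham replicate 2 and 5 without rUUO replicate 2, 3 or 4.

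The levels can also be given as shares of the sham mean. In UUO and rUUO, Slc6a19 had 11.0% and 34.9% of its sham mean, Slc22a8 14.8% and 45.0%, Slc5a2 16.4% and 52.6%, Slc34a1 23.0% and 55.3%, and Slc34a3 16.8% and 73.0%. Both percentages of a gene share the same sham samples. Slc13a3 had 54.1% and 56.3%, so that its rUUO level was near its UUO level, and Slc2a2 had 25.8% and 42.2%.

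**Figure D4:**
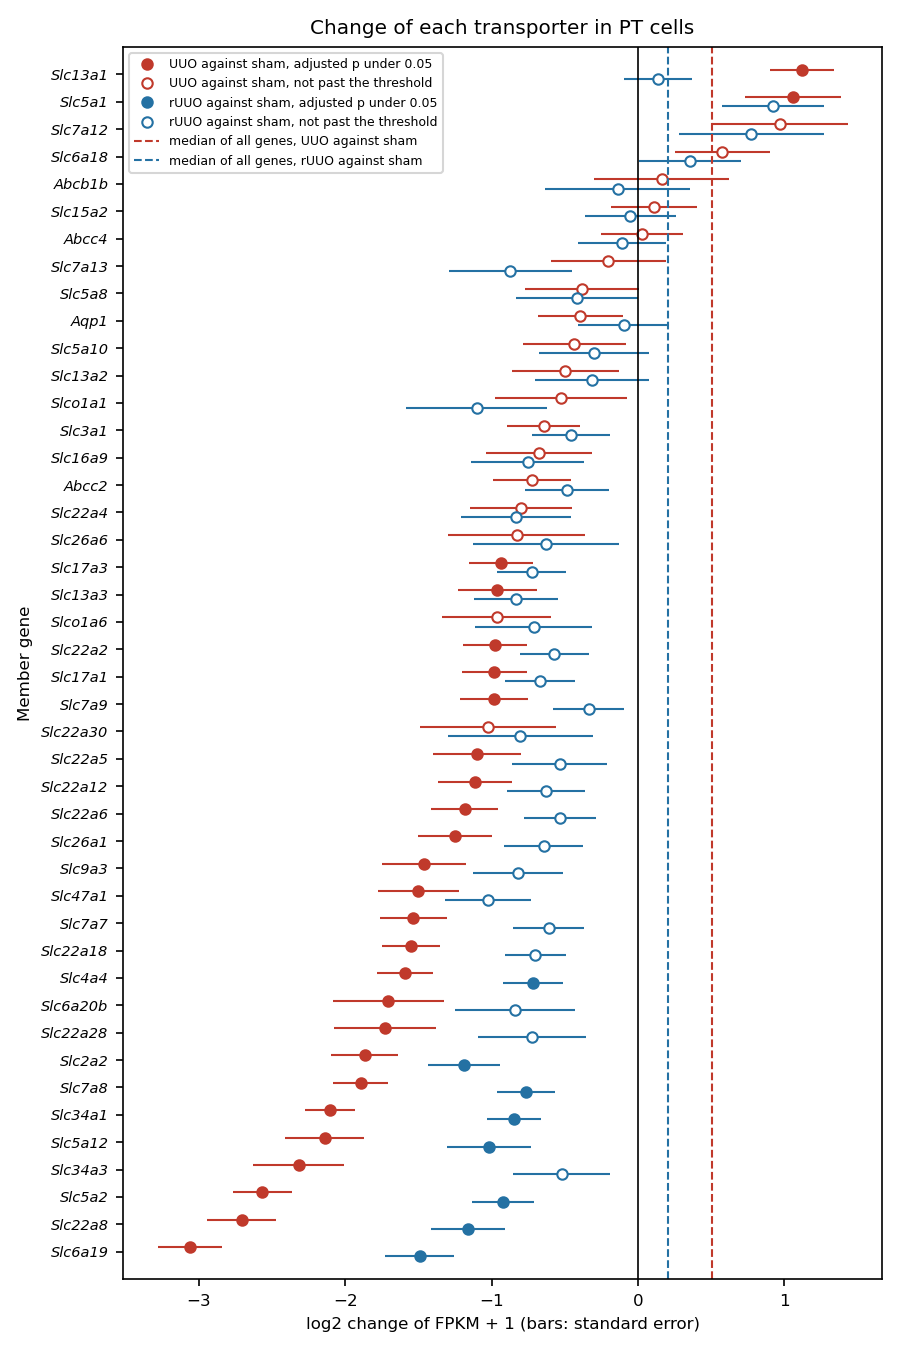
log2 change of FPKM + 1 of each transporter in UUO (red) and rUUO (blue) against sham PT cells, with standard errors; filled points passed the adjusted threshold and dashed lines give the medians of all genes, 0.51 and 0.21. In UUO 24 filled points lie left of 0 and 2 right of it, and in rUUO 8 lie left.

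Genes that work beside these transporters went with them in part. Of the 12 partner and scaffold genes tested, 4 fell in UUO and 4 rose, against 4.91% and 27.9% of all genes. Tmem27, the protein that brings Slc6a19 to the apical membrane, changed by -1.86 from 443 ± 84.9 to 122 ± 23.4 FPKM, the scaffold Pdzk1 by -1.19, the carbonic anhydrase Car4 by -1.20 and the sodium pump subunit Fxyd2 by -0.61. Those that rose were Mal at 4.36, Car2 at 1.16, Slc9a3r2 at 1.04 and the sodium pump subunit Atp1b1 at 0.86. Car2 and Mal are also made in other nephron segments.

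Of 34 other transporters of the kidney that were tested, 16 fell and 3 rose, against 4.91% and 27.9% of all genes. The fructose carrier Slc2a5 changed by -2.73 and the glucose-6-phosphate carrier Slc37a4 by -2.02. The risers were Slc34a2 at 3.61, the phosphate carrier Slc20a1 at 1.87 and Clcn5 at 1.01. Slc34a2, the sodium-phosphate cotransporter of the same family as Slc34a1 and Slc34a3, had 0.16, 0 and 0.03 FPKM in sham, 10.6, 8.56, 21.2 and 10.4 FPKM in UUO, and 4.63, 3.36 and 6.12 FPKM in rUUO. Its groups did not overlap, and its level in UUO stayed below that of Slc34a1.

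A list of general transporters, which most cells use, showed the opposite count. Beside nutrient carriers it holds the ABC pumps Abca1, Abcg1, Abcc1 and Abcc3, so its counts and median are not those of nutrient carriers alone. Of 13 tested, 10 rose in UUO and 2 fell, against 27.9% and 4.91% of all genes. The median change was 1.52, where that of all genes was 0.51. After quantile normalization 6 rose and 2 fell, with 1218 of all 11416 genes higher and 1217 lower. Slc2a1, the glucose carrier GLUT1, had 3.29, 2.89 and 3.85 FPKM in sham, 54.2, 45.4, 57.1 and 48.2 FPKM in UUO, and 15.2, 15.1 and 13.9 FPKM in rUUO. The 3 groups were separate, and the change in UUO was 3.59 (limma adjusted p = 2.15e-08). The efflux pumps Abcc3 and Abcc1 rose by 2.73 and 2.39, whereas the 3 ABC pumps among the members did not pass on the deposited scale. The 2 that fell were Slc3a2 at -1.30, which is the shared heavy chain of Slc7a7 and Slc7a8, and the lactate carrier Slc16a1 at -1.01.

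Markers of other cells moved in the same PT samples, where 27.9% of all genes were called higher in UUO and 4.91% lower. The summed level of 7 collecting duct markers was 25.6 to 38.7 FPKM in sham, 414 to 556 FPKM in UUO and 185 to 269 FPKM in rUUO, and 5 of the 7 were called higher in UUO. Most of it was Atp6v1g3 and Foxi1, both markers of intercalated cells, at 283 ± 68.4 and 116 ± 5.88 FPKM in UUO. Aqp2, which defines principal cells, had 1.5 to 2.99 FPKM in sham and 2.69 to 7.33 FPKM in UUO. For 6 markers of the thick ascending limb the sums were 63.3 to 68.3 FPKM in sham and 155 to 218 FPKM in UUO, with 2 called higher and 1 lower. Most of that rise was Umod, at 17.4 ± 2.21 FPKM in sham and 147 ± 16.3 FPKM in UUO. Cldn10 was the largest part of the sham sum and went the other way, from 38.8 ± 0.529 to 17.3 ± 8.38 FPKM. The sums therefore understate the rise of the rest of the list. Like the proximal tubule markers Cldn10 was lower in UUO, and which segment its RNA came from was not tested. Egf had a lower mean in UUO, 2.85 ± 1.22 FPKM after 5.53 ± 2.13 FPKM in sham, but its groups overlapped (1.78 to 4.58 and 3.95 to 7.95 FPKM). For 4 markers of the distal tubule the sums were 10.2 to 22.8 and 10.5 to 29.1 FPKM with 0 of the 2 tested called. Of the macrophage, endothelial and stromal markers 0 of 6, 0 of 7 and 2 of 5 tested were called higher, with sums of at most 98.8, 35.2 and 54.3 FPKM in UUO. All 10 proximal tubule markers fell, from sums of 5980 to 7462 FPKM in sham to 2638 to 3849 FPKM in UUO, as most transporters did. Tubule injury markers rose in all 5 tested, with Havcr1 from 1.17 ± 0.677 to 269.5 ± 116 FPKM. The part of these cell types in the changes of the transporters was not tested.

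Over the 10 PT samples, the 5 genes outside the list whose log2(FPKM + 1) was most like the mean of the z-scored transporters were Lrp2 (Pearson's r = 0.987), Nus1, Gcnt1, Cubn and Kl (r = 0.983). They were found among all genes tested and the samples share the 3 surgery groups, so r is a description.

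The other 3 populations were compared between UUO and sham in the same way. In macrophages 25 transporters were tested and 9 were lower in UUO, against 2.13% of all genes called lower (limma). They were Slc34a1, Slc5a2, Slc4a4, Slc5a12, Slc6a19, Slc22a18, Slc22a6, Slc17a1 and Slc15a2. In endothelial cells 27 were tested and 0 were called, against 1.98% of all genes (limma). An unadjusted limma p under 0.05 was seen for 12, but the share of all genes at that cut was not counted. In stromal cells 25 were tested, 12 were lower and 1 was higher, against 13% and 13.4% of all genes. The median changes of the tested transporters were -1.13, -0.71 and -1.06, where the medians of all genes were -0.03, 0.03 and -0.07. Most of these levels were low: Slc34a1 had 63.7 ± 6.10 FPKM in sham macrophages and 11.9 ± 5.24 FPKM in UUO macrophages (SD, n = 4), 4.37% and 3.56% of its levels in PT cells. The summed level of the 10 proximal tubule markers was also lower in the UUO samples, going from 377 to 516 FPKM in sham to 150.4 to 197 FPKM in UUO macrophages, from 188 to 461 to 100.2 to 151 FPKM in endothelial cells and from 118 to 189 to 24.8 to 50.5 FPKM in stromal cells. The part of PT RNA in the changes of the transporters there was not tested.

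A few transporters had levels of their own outside the PT cells. Slc15a2, which takes up di- and tripeptides, had 21.4 ± 7.80 FPKM in sham macrophages and 7.21 ± 4.08 FPKM in UUO macrophages (limma adjusted p = 0.0338), with no overlap, and 14.3 ± 2.73 and 15.5 ± 2.34 FPKM in PT cells. In stromal cells it fell from 8.84 ± 1.89 to 2.41 ± 2.63 FPKM (limma adjusted p = 0.00998). Slc7a8 fell in stromal cells from 49.6 ± 8.90 to 22.1 ± 13.8 FPKM (limma adjusted p = 0.0131), although 1 UUO sample lay within the sham range. Slc7a7 rose in stromal cells from 4.65 ± 1.46 to 15.4 ± 7.37 FPKM (limma adjusted p = 0.0318), while it fell in PT cells. Slc7a7 is also known from macrophages, whose 8 markers summed to 64.9 to 87.7 FPKM in sham and 50.7 to 112 FPKM in UUO stromal samples. The calls of Slc15a2 in macrophages and of Slc7a7 in stromal cells were not made in every alternative, whereas those of Slc15a2 and Slc7a8 in stromal cells were.

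**Figure D5:**
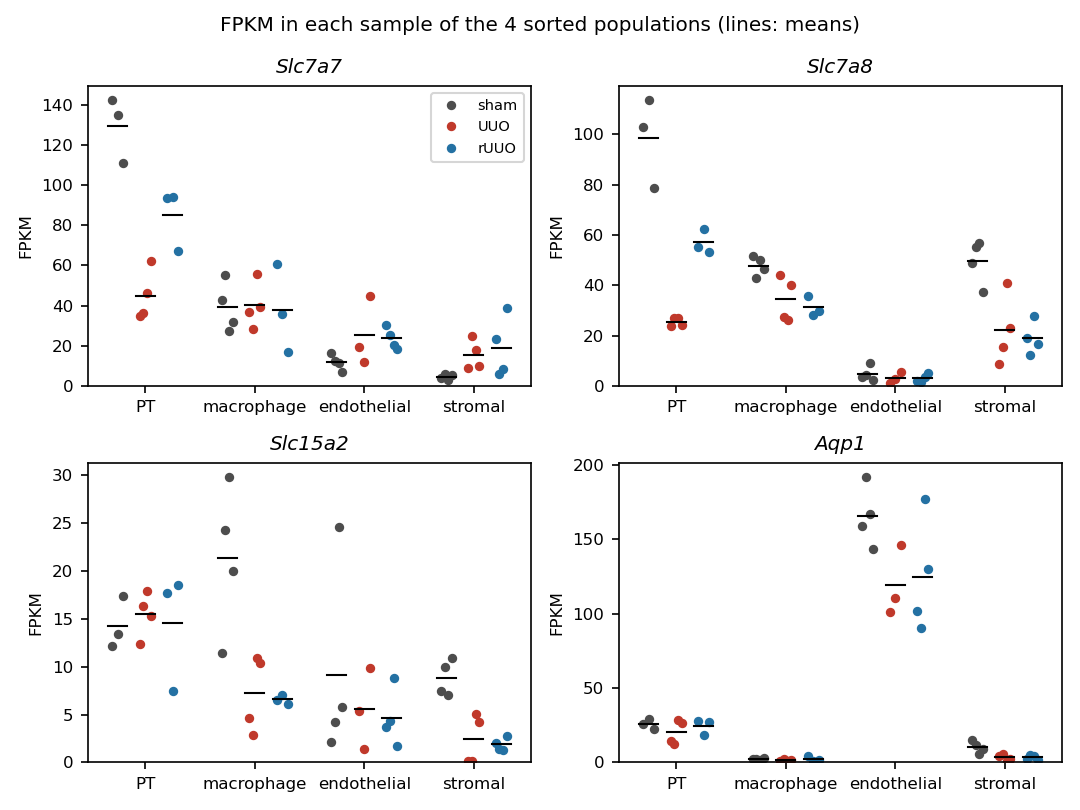
FPKM of Slc7a7, Slc7a8, Slc15a2 and Aqp1 in each sample of the 4 populations after sham surgery, UUO or rUUO, as points, with lines at the means; each vertical axis starts at 0. Slc7a7 falls in PT cells and is higher in UUO stromal cells, Slc15a2 is lower in UUO macrophages and stromal cells but not in PT cells, and Aqp1 is highest in endothelial cells.

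Whether the UUO change of PT cells differed from that of another population was tested as a contrast in a fit of all samples, for 40 transporters. This fit took the samples as independent, although the labels do not say whether samples of different populations came from the same mice. The contrast passed for 5 against macrophages, 6 against endothelial cells and 12 against stromal cells, where 15.5%, 11.1% and 29.2% of all genes passed (limma). These shares of the 40, 12.5%, 15% and 30%, were close to those of all genes. Slc34a3, Slc22a28 and Slc6a19 had passing differences against all 3 populations. Their sham means there were at most 1.30 FPKM for Slc34a3 and Slc22a28 and 4.79 FPKM for Slc6a19. From such levels log2(FPKM + 1) cannot fall as far as it did in PT cells, so these values do not show that the cells responded differently. With a pseudocount of 0.1 the passing transporters numbered 0 against macrophages, 2 against endothelial cells and 7 against stromal cells. Slc7a7 had the largest difference, -3.0 ± 0.60 against stromal cells (limma adjusted p = 0.000151) and -2.44 ± 0.62 against endothelial cells (limma adjusted p = 0.00617). Slc5a1 differed in the other direction, by 2.53 ± 0.39 against stromal cells (limma adjusted p = 2.41e-06), where it had 2.08 ± 0.675 FPKM in sham and 0.1 ± 0.0920 FPKM in UUO.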

How the data were processed

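RNA of sorted cells was amplified with the Ovation RNA-Seq System V2 before HiSeq sequencing of 2 x 150 base pairs. The authors deposited 1 table of FPKM values per gene; the submitters' processing notes name FastQC, Bowtie2, RSEM, DESeq2 and mm10, and the table holds no counts, so no counting interval can be given. Of its 46 sample columns 44 were used, since 2 share 1 name, CD31+ UUO 3. The labels list 4 PT sham samples, but no column is named for replicate 3 of them. Which sample each of the 2 columns holds could not be told from the names, so 3 PT sham samples were used. Groups came from the labels. log2(FPKM + 1) of every gene whose mean reached 1 FPKM was fitted with limma 3.58.1 (R 4.3.3; empirical Bayes with trend), separately in each population, with Benjamini-Hochberg adjustment over all genes tested and a threshold of 0.05; contrasts between populations used a fit of all samples. Single values were also compared by an exact two-sided permutation test, whose smallest p is 0.0286 for 3 against 4 samples. Given sample by sample are, in each role, the gene with the highest PT sham mean and the called genes with the largest change in either direction, and every gene called higher in UUO or called between rUUO and UUO. Members and lists were chosen with earlier results of these data known. Fits were tested on simulated data. Relative depth over all 44 samples was 0.616 to 1.63. Alternatives were another pseudocount, no filter, TPM, quantile normalization, a scale without mitochondrial genes, no trend, a replicate block, a joint fit and leaving out each sample. RSEM splits reads between near-identical paralogues.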

Additional observations from a re-analysis of the deposited data

Results flagged for a closer look

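In 1 of the 24 groups of 4 samples examined, a transporter had a sample far from the others. Slc22a8 had 26.7 FPKM in UUO replicate 1 of the PT cells and 16.3 to 17.4 FPKM in the other 3; the gap took 0.867 of the range, above the 95% critical value for 4 samples, which chance passes in about 1 of 20 groups.

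For 13 transporters the difference of the UUO change between PT cells and at least 1 other population passed the threshold (limma interaction contrast, adjusted over all genes). Values are differences of log2 changes, PT minus the other population, beside all-gene medians of 0.45 for macrophages, 0.40 for endothelial cells and 0.51 for stromal cells. Against macrophages they were 1.38 for Slc13a1, -1.34 for Slc22a28, -1.49 for Slc34a3, -1.21 for Slc6a19 and -1.40 for Slc7a8. Against endothelial cells they were -1.23 for Slc22a28, -1.66 for Slc34a3, 1.77 for Slc5a1, -1.62 for Slc6a19, -2.44 for Slc7a7 and -1.48 for Slc7a8. Against stromal cells the positive ones were 1.46 for Slc13a1, 2.04 for Slc15a2 and 2.53 for Slc5a1. The negative ones against stromal cells were -1.63 for Slc16a9, -2.32 for Slc22a18, -1.37 for Slc22a28, -1.76 for Slc22a8, -1.37 for Slc2a2, -2.0 for Slc34a3, -1.78 for Slc4a4, -2.31 for Slc6a19 and -3.0 for Slc7a7. Outside the PT cells Slc34a3 and Slc22a28 had sham means of at most 1.30 and 0.715 FPKM and were not tested within those populations, and Slc6a19 in all 3 populations and Slc2a2 and Slc22a8 in stromal cells were at most 4.79 FPKM. From such levels log2(FPKM + 1) cannot fall as far as in PT cells, so the negative values of these 5 genes do not show a different response. With a pseudocount of 0.1, 0 of the calls against macrophages were made. The call for Slc13a1 against macrophages was lost after quantile normalization (difference 0.99, limma adjusted p = 0.107), as was that for Slc5a1 against endothelial cells (1.02, limma adjusted p = 0.0851). Made in every alternative were the calls for Slc7a7 against endothelial cells and for Slc5a1, Slc22a18, Slc4a4 and Slc7a7 against stromal cells.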

How the results depend on the processing

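For single transporters described sample by sample, 742 alternative values kept direction and side of the threshold, 14 passed it newly, 103 no longer passed and 5 reversed; of counts and medians 269 stayed within their margin and 45 did not. The cause of these shifts was not tested unless fewer samples or genes were used. The median change in UUO was -1.36 after quantile normalization and -1.27 without mitochondrial genes in the scale, and the number of calls without 1 sample was 24 to 28. Between rUUO and UUO, the 11 calls became 6 without filter, 6 without trend, 7 in the joint fit of 4 populations and 6 to 11 without 1 sample, and the median was 0.55 after quantile normalization. Reversals, none of them past the threshold, were Slc5a1 at 0.14 after quantile normalization (-0.27 to 0.10 without 1 sample, highest without UUO replicate 4), Slc13a3 at -0.043 to 0.35 without 1 sample, below 0 without UUO replicate 1 or 2, and in rUUO against sham Aqp1 at -0.21 to 0.095, above 0 without rUUO replicate 3. Between rUUO and sham, the 8 calls became 5 without filter, 13 without mitochondrial genes, 3 without trend, 4 in the joint fit and 2 to 8 without 1 sample. The median of PT against other cells was 4.75 with a pseudocount of 0.1, 3.48 without filter, 3.65 as TPM, 4.69 after quantile normalization and 4.71 without mitochondrial genes. In macrophages the median was -1.91 with a pseudocount of 0.1 and -0.63 without filter. In stromal cells these were -1.36 and -0.49, and without 1 sample the median was -1.24 to -0.74 and the number of calls 8 to 12 in place of 13, lowest without sham replicate 3. In endothelial cells 1 call was made without trend. The calls for differences between populations were, with a pseudocount of 0.1, 0 against macrophages, 2 against endothelial and 7 against stromal cells. They were 3 as TPM and 2 to 5 without 1 sample against macrophages, and 10 after quantile normalization against endothelial cells. Same-numbered PT samples deviated together only weakly (correlations -0.00952 to 0.117), which does not settle whether the numbers pair them. With the replicate block 28, 7 and 7 transporters were called for UUO against sham, rUUO against UUO and rUUO against sham. FPKM without counts limits what can be said of transporters under 1 FPKM.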
